A study of Mus musculus with 24 samples.

Results

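The lipid S14 was set directly against lipopolysaccharide (LPS), a component of the outer membrane of Gram-negative bacteria, in mouse macrophages after 3 h. The comparison used 8 of the 24 libraries in the series, 4 with each agent, chosen by their labels. Another 4 untreated libraries of the same time gave the baseline level of each gene. All cells were bone marrow-derived macrophages of C57BL/6J wild-type mice that had grown in L929-conditioned medium, which supplies the macrophage growth factor M-CSF. S14, sphingomyelin d18:1/14:0, was given at 30 µM and LPS at 100 ng/mL, for 3 h each. The labels call the control cells untreated, while the headers of the deposited counts name them Veh. The design text gives n = 4 and does not say whether the libraries of a group were separate animals or cultures, so the p-values below measure the spread between these libraries, which may be technical.

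Sphingomyelins are phosphocholine-bearing sphingolipids of the plasma membrane and of lipoproteins. LPS binds CD14 and the pair of Toll-like receptor 4 and MD-2, which signals through MyD88 to NF-kB and through the adaptors TRAM (Ticam2) and TRIF (Ticam1) to interferon genes. Macrophages also adjust sterol synthesis through SREBP2, cholesterol export through the liver X receptors, and defence against oxidants through NRF2 (Nfe2l2). A gene can therefore separate these agents in several ways. S14 can raise it above the level with LPS, 1 agent can move it while the other leaves it within a small interval, or the agents can move it in opposite directions, and the genes are described in that order below.

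Reads came from the 3' ends of polyadenylated RNA. Each of the 12 libraries at 3 h held 3334182 to 5465764 reads on 14365 to 15505 genes. Levels are CPM, the reads of a gene scaled to a common library size, after TMM scaling, which aligns libraries on their typical gene. The 20 most abundant genes took 18.5% to 18.9% of reads with LPS, 14.6% to 15.0% with S14 and 15.2% to 15.8% in untreated cells. All directions are relative to that typical gene. Reads of added spike-in RNA made up 0.0178% to 0.0319% of reads with LPS and 0.0356% to 0.0472% with S14, and scaling to them shifted the median difference between S14 and LPS by -0.23 on the log2 scale. With the 3 h libraries alone that shift was -0.224, and with LPS replicate 1 also left out it was -0.015. Both of these settings were chosen after seeing the data. Macrophage markers summed to 21900 to 23600 CPM with S14, 21000 to 22600 with LPS and 21500 to 22900 untreated. The neutrophil list had reads for 9 of 11 genes and summed to 22.1 to 56.3 CPM with LPS, 19.8 to 28.4 with S14 and 20.0 to 30.1 untreated. Mmp8 gave most of it, S100a8 averaged 11.1 CPM with LPS and 4.93 with S14, S100a9 averaged 6.40 and 2.01, and Ly6g and Elane had no read. The NK cell, mast cell, fibroblast and red cell lists had reads for 3 of 7, 4 of 7, 4 of 9 and 2 of 7 genes, with sums of at most 4.41 CPM in any library, and Ncr1, Fcer1a, Col1a1 and Hba-a1 had no read. The T cell list, with Cd3g at 0, summed to 20.1 to 39.5 CPM with LPS against 4.65 to 7.38 with S14, of which Lck gave 26.7 and 1.22 on average, and the dendritic cell list to 26.8 to 42.8 against 3.29 to 7.97, of which Fscn1 gave 28.6 and 4.15. The epithelial and endothelial list summed to 50.8 to 80.1 against 16.4 to 34.1, with Kdr at 65.6 and 21.3 on average and Krt8 and Tek at 0. A read was found for 7 of 8, 10 of 10 and 6 of 8 genes of the T cell, dendritic cell and last lists, and the part of these marker genes in the results was not tested. In bulk RNA, a change in the number of cells of a type and a change in RNA per cell cannot be told apart.

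Of 55401 genes in the table, 11717 held enough reads to be tested. Calls below rest on an adjusted p below 0.05 from edgeR's quasi-likelihood test, with Benjamini-Hochberg adjustment over all tested genes. By that rule 5399 genes (46.1%) differed between S14 and LPS, 2775 higher (23.7%) and 2624 lower (22.4%) with S14. Changes of at least 2-fold numbered 1083 higher and 1225 lower. Scaled to spike-in reads the same test called 612 higher and 1620 lower. With the 3 h libraries alone it called 1094 and 2459, and with LPS replicate 1 also left out 1969 and 2089. All 4 S14 libraries lay on one side of all 4 LPS libraries for 5026 genes (42.9%), among them 2235 of the genes called higher and 2382 of those called lower. Against untreated cells, S14 raised 9.05% of tested genes and lowered 6.2%, while LPS raised 25.3% and lowered 30.2%. Both comparisons use the same untreated libraries.

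Most genes higher with S14 were genes that LPS had lowered. LPS was called below untreated cells for 2451 of the 2775, and S14 itself was not called against untreated cells for 2032 of these. S14 was called above untreated cells for 111 of the 2775 and below for 384. Among the 2624 genes lower with S14, LPS was called above untreated cells for 2366. S14 had also raised 769 of the 2624 and had lowered 83. The comparison of S14 with LPS shares libraries with each comparison against untreated cells, so the calls counted here are not independent.

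**Figure D1:**
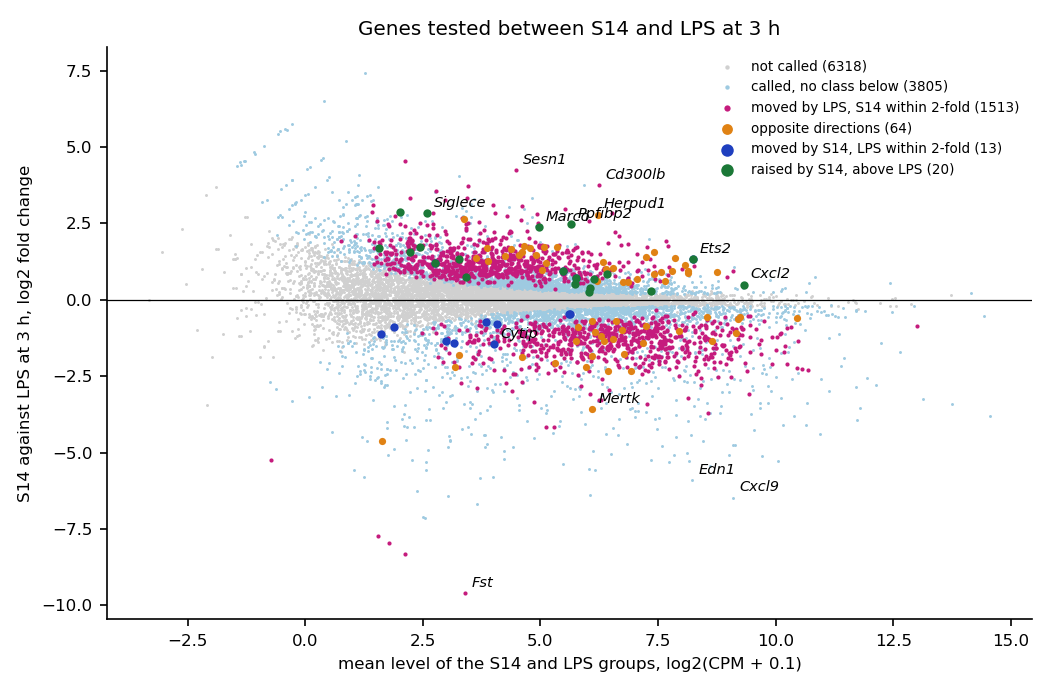
Each point is 1 of 11717 tested genes: the x axis gives its mean level with S14 and LPS, as log2 of CPM plus 0.1, and the y axis its log2 fold change of S14 against LPS at 3 h. Green points (20) were raised at least 2-fold by S14 and lay above LPS, blue points (13, of which 4 lie under green ones) changed at least 2-fold with S14 and less than 2-fold with LPS, magenta points (1513) the reverse, and orange points (64) moved in opposite directions.

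Genes on which the lipid exceeded LPS were few. S14 raised 20 genes (0.171% of those tested) at least 2-fold over untreated cells and called above LPS. LPS did not reach a call against untreated cells for 9 of them, was called higher for 10 and lower for 1. They included surface receptors and ligands (Marco, Siglece, Icosl), secreted proteins (Cxcl2, Lox) and signalling proteins (Irak3, Pim2, Ksr1, Arl5c, Cdc42ep2, Ppfibp2). The others were nuclear proteins (Ets2, Tsc22d1, Tshz1, Dnmt3l, Cdkn2b), an enzyme (Ampd3), the membrane proteins Tmem176a and Tmem178 and 1 predicted gene. At least 10 CPM in the higher group was reached by 15 of the 20. Under spike-in scaling 6 of the 19 with a gene name stayed called above LPS, namely Tmem178, Siglece, Ppfibp2, Marco, Ksr1 and Ets2. With the 3 h libraries alone 11 did so, and 14 when LPS replicate 1 was also left out. At the edge of the 2-fold minimum stood Ampd3 and Tmem176a, with log2 fold changes over untreated cells of 1.15 and 1.10. Just outside it were Ptgir and Sqstm1 (both 1.00 after rounding), Fam114a1 (0.99) and Syk (0.96).

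Marco, a scavenger receptor that binds bacteria (chromosome 1, 120474538 to 120505024, minus strand, GRCm38), showed the largest rise over untreated cells among the named genes of this group. Its levels were 51.7, 45.9, 49.3 and 63.7 CPM with S14, 11.6, 6.96, 13.1 and 8.83 with LPS and 8.01, 4.28, 6.60 and 5.87 untreated. No S14 library came near either of the other groups, and LPS and untreated libraries overlapped. S14 stood 2.37 ± 0.33 (log2 ± SE) above LPS (edgeR adjusted p = 4.54e-06), and LPS against untreated cells gave 0.72 ± 0.44 (adjusted p = 0.172).

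Siglece, an inhibitory receptor for sialic acid (chromosome 7, 43651070 to 43660161, minus strand), was likewise highest with S14, at a lower level, while LPS and untreated libraries overlapped. S14 libraries held 8.53, 9.17, 12.2 and 11.5 CPM, LPS libraries 2.43, 1.67, 0.728 and 1.04 and untreated libraries 1.18, 1.13, 3.08 and 2.55. Every S14 library was above every other one, at 2.83 ± 0.38 over LPS (edgeR adjusted p = 3.2e-08). Of 21 tested Siglec, CD300 and paired receptors, 7 were higher and 6 lower with S14 than LPS, beside 23.7% and 22.4% of all tested genes.

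The transcription factor Ets2 (chromosome 16, 95702075 to 95721051, plus strand) was the most abundant of the group that LPS left within a narrow interval. It gave 410, 424, 465 and 431 CPM with S14, 175, 143, 191 and 179 with LPS and 176, 163, 192 and 206 untreated. LPS and untreated libraries overlapped and S14 libraries stood apart from both. The difference from LPS was 1.33 ± 0.11 (edgeR adjusted p = 1.17e-12), while LPS against untreated cells gave -0.10, with a 95% interval from -0.34 to 0.14. Tsc22d1, a leucine zipper regulator of transcription, had 52.2, 52.2, 53.3 and 74.8 CPM with S14 and 27.3, 25.9, 29.6 and 38.2 with LPS (0.95 ± 0.18). Its S14 libraries did not overlap with the others, of which untreated cells held 16.4 to 27.7 CPM. The zinc finger factor Tshz1 reached 72.2 to 104 CPM with S14, 46.0 to 62.1 with LPS and 30.2 to 36.1 untreated, so that LPS moved it part of the way.

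Ppfibp2, a scaffold protein of the liprin family, was 1 of the genes that S14 raised and LPS lowered. Its levels were 78.0, 92.7, 88.1 and 81.0 CPM with S14, 16.8, 17.8, 11.7 and 15.3 with LPS and 28.5, 21.4, 27.7 and 26.3 untreated. The groups did not overlap anywhere, and S14 lay 2.47 ± 0.14 above LPS (edgeR adjusted p = 1.25e-18). Pim2, a survival kinase, gave 18.9, 12.5, 12.0 and 11.2 CPM with S14 and 10.0, 4.46, 3.64 and 3.63 with LPS (1.32 ± 0.38). Replicate 1 was the highest library of each of the 3 groups for Pim2. Icosl, the ligand of the T cell costimulator ICOS, rose in both groups, to 89.2 to 119 CPM with S14 and 48.2 to 69.9 with LPS from 30.4 to 37.8 untreated (S14 above LPS by 0.85 ± 0.14).

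The neutrophil chemokine Cxcl2 (chromosome 5, 90903871 to 90905938, plus strand) was the most abundant gene of the group. It reached 600, 701, 853 and 849 CPM with S14, 474, 460, 640 and 549 with LPS and 137, 149, 158 and 189 untreated. Both agents raised it in every library, and the lowest S14 library lay below the highest LPS library. The call above LPS (0.50 ± 0.13, edgeR adjusted p = 0.00305) was therefore of a difference in means with overlapping groups, and it was lost under spike-in scaling (0.29). Of 18 tested chemokines, Cxcl2 was the 1 called higher with S14, and 13 were lower, beside 23.7% and 22.4% of all tested genes. Cxcl1, its close relative, stood at 47.5, 64.0, 96.5 and 81.9 CPM with S14 and 42.2, 46.2, 68.2 and 58.4 with LPS, a difference of 0.43 whose 95% interval ran from -0.12 to 0.99 (edgeR adjusted p = 0.195).

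Smaller excesses over LPS came from Lox, the collagen cross-linking enzyme (0.76 ± 0.27), Ampd3, an AMP deaminase (0.70 ± 0.13), Cdc42ep2, an effector of the GTPase CDC42 (0.53 ± 0.17), Irak3, an inhibitor of Toll-like receptor signalling (0.40 ± 0.16), Arl5c, a small GTPase (0.28 ± 0.09), and Tmem176a, a membrane protein (0.26 ± 0.11). S14 and LPS libraries overlapped for Irak3 and Lox. Irak3 and Tmem176a lost their call with another median-based scaling of the libraries (edgeR RLE), and Tmem176a turned to a value just below 0 under spike-in scaling. Exons of Tmem176a, Irak3 and Ampd3 overlap those of Tmem176b, Tmbim4 and Rnf141 on the opposite strand, and whether the counting used strand is not stated in the labels, so reads of these pairs cannot be told apart. The last 4 named genes had under 10 CPM in both groups: Tmem178, an endoplasmic reticulum membrane protein (2.88 ± 0.46), Dnmt3l, a cofactor of DNA methyltransferases (1.74 ± 0.45), Cdkn2b, a cyclin-dependent kinase inhibitor (1.70 ± 0.63), and Ksr1, a scaffold of the RAF and MEK kinases (1.58 ± 0.48). S14 and LPS libraries overlapped for Cdkn2b and Ksr1.

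**Figure D2:**
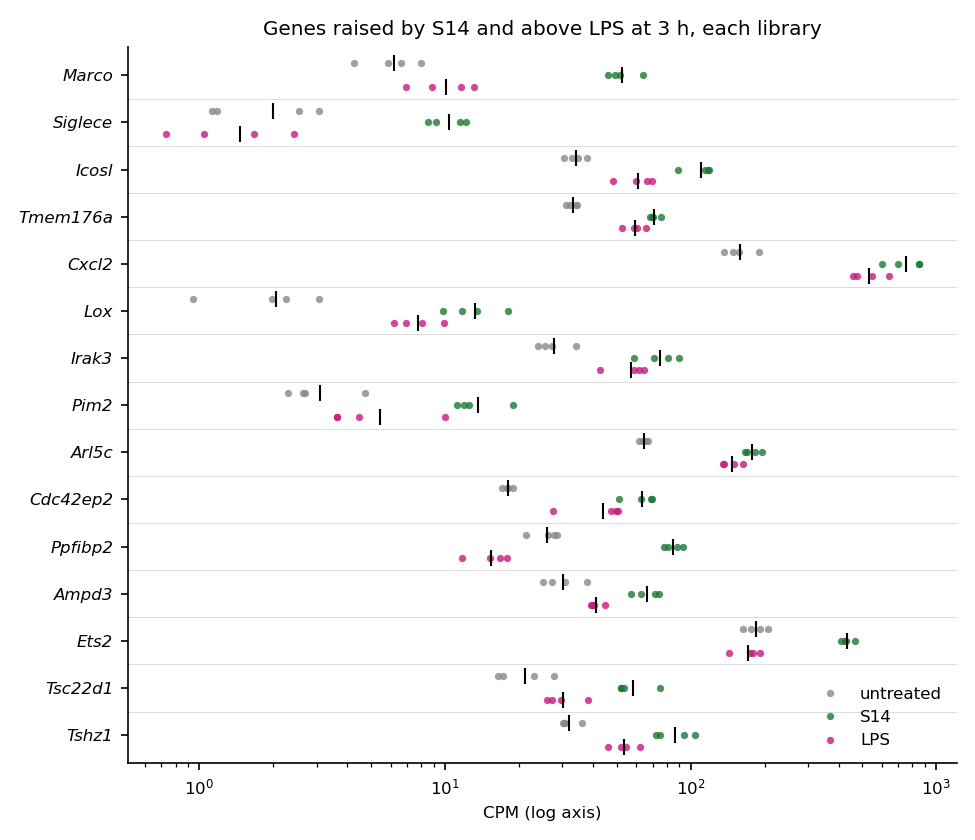
CPM of each library (log axis) for the 15 genes with at least 10 CPM that S14 raised at least 2-fold and above LPS: dots are the 4 libraries of untreated (grey), S14 (green) and LPS (magenta) cells, and black ticks are group means. S14 libraries lie above all others for Marco, Siglece, Ets2 and Ppfibp2, and overlap LPS libraries for Cxcl2, Lox and Irak3.

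Stretches of the promoters of Cxcl2 and Marco are shown because both hold a match to the NF-kB motif (GGG, any 2 bases, then TTTCC or TTCCC, read on both strands), while LPS exceeded S14 at neither gene. Sequences are from RefSeq on GRCm38.p6, written 5' to 3' on the strand of the gene, with motif letters in capitals. The Cxcl2 stretch is chr5:90903789-90903848, plus strand, from 110 to 51 bases before the start, and that of Marco is chr1:120505025-120505084, minus strand, from 60 to 1 bases before it.
Cxcl2: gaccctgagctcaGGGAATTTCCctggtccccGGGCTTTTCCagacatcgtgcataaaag
Marco: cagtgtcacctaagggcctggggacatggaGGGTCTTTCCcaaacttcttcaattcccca
Among the 16 genes of this group with a promoter in the table, 3 (18.8%) had a match to this motif, beside 4.73% of the 8804 tested genes with a promoter; the third was Tmem176a. None of the 16 held the interferon-stimulated response element (GAAA, any 2 bases, GAAA), beside 4.19% of all. A match is a description of the letters in a 300-base window and shows no binding.

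S14 moved 13 genes (0.111%) that LPS left within 2-fold of untreated cells, 4 of them up and 9 down. Such a gene changed at least 2-fold with S14, was called against LPS, and had a 95% interval of LPS against untreated cells within 2-fold in either direction. Those that rose were Ets2, Tsc22d1, Ampd3 and 1 predicted gene, described above. LPS was itself called above untreated cells for Tsc22d1 (0.52) and Ampd3 (0.44). Those that fell were regulators of adhesion and signalling (Cytip, Eps8, Shb), the growth factor Kitl, the receptors Cd300lf, Rell1 and Sirpb1c and the nuclear proteins Hmga2 and Etv1. This count fell to 7 without LPS replicate 2, to 8 without S14 replicate 3 and to 3 under spike-in scaling, and it was 8 in that scaling without LPS replicate 1.

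Cytip, which binds cytohesins and restrains cell adhesion (chromosome 2, 58129137 to 58195532, minus strand), had the largest fall. Its levels were 10.9, 9.64, 6.53 and 7.63 CPM with S14, 21.9, 23.4, 25.5 and 23.4 with LPS and 27.5, 25.4, 32.8 and 26.3 untreated. All S14 libraries lay below all others. S14 was 1.46 ± 0.19 below LPS on the log2 scale (edgeR adjusted p = 2.91e-08), and LPS against untreated cells gave a 95% interval from -0.62 to 0.12. Eps8, a regulator of actin, gave 3.10, 5.41, 3.37 and 5.76 CPM with S14, 10.3, 12.8, 12.4 and 9.87 with LPS and 11.0 to 15.3 untreated. S14 libraries again lay below the rest, at -1.33 ± 0.23 from LPS (edgeR adjusted p = 5.21e-06).

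Shb, an adaptor of tyrosine kinase receptors, held 4.23 to 5.94 CPM with S14, 10.9 to 18.1 with LPS and 8.17 to 13.4 untreated (-1.40 ± 0.30 from LPS). Kitl, the ligand of the receptor KIT, held 10.1 to 11.6, 16.0 to 22.0 and 19.5 to 29.4 CPM in the same order (-0.72 ± 0.22). For Kitl, Rell1 and Hmga2, LPS was itself called below untreated cells, by less than 2-fold, so that S14 moved them further in the direction of LPS. Rell1, a relative of the TNF receptor RELT, differed from LPS by -0.46 ± 0.12 and Hmga2, a chromatin protein, by -0.45 ± 0.18. Cd300lf, an inhibitory receptor for lipids, differed by -0.77 ± 0.27, Etv1, an ETS family transcription factor, by -0.89 ± 0.34 and Sirpb1c, a signal-regulatory protein, by -1.10 ± 0.37. S14 and LPS libraries overlapped for Cd300lf and Sirpb1c, and reads of Sirpb1c may be shared with its close relatives.

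Responses in opposite directions were found for 64 genes (0.546%). S14 raised and LPS lowered 35 of them, and S14 lowered and LPS raised 29. Each agent changed its gene at least 2-fold for 3 of the 64. That count depended on the scaling: no gene met the rule under spike-in scaling, 6 did with the 3 h libraries alone and 28 when LPS replicate 1 was also left out, 26 of them among the 64. The direct differences between S14 and LPS described next kept their sign under these scalings.

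Herpud1, a part of the machinery that degrades misfolded proteins of the endoplasmic reticulum (chromosome 8, 94386438 to 94395377, plus strand), showed the largest difference among genes that S14 raised and LPS lowered. Its levels were 127, 119, 142 and 131 CPM with S14, 19.7, 11.4, 22.6 and 21.0 with LPS and 81.7, 60.6, 76.6 and 68.2 untreated. The groups were fully separate, with S14 2.79 ± 0.13 above LPS (edgeR adjusted p = 1.63e-21). Of 18 tested genes of the unfolded protein response, 4 were higher and 4 lower with S14 than LPS, and 10 were not called. These counts lay near the shares of all tested genes, 23.7% higher and 22.4% lower. Peli3, a ubiquitin ligase of the Pellino family, held 14.7 to 20.0 CPM with S14, 2.34 to 3.52 with LPS and 8.11 to 10.8 untreated (2.64 ± 0.29). Slc39a13, a zinc transporter whose exons overlap those of Psmc3 on the opposite strand, differed by 1.73 ± 0.17, and Tbc1d2b, a Rab GTPase-activating protein, by 1.72 ± 0.13.

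Among receptors and adaptors of the LPS pathway, Ticam2, which encodes the TLR4 adaptor TRAM, held 28.7, 20.2, 30.4 and 30.3 CPM with S14 and 6.76, 13.4, 13.1 and 7.27 with LPS. Untreated cells held 15.1 to 21.3 CPM and overlapped S14 libraries, and S14 lay 1.44 ± 0.19 above LPS (edgeR adjusted p = 1.94e-08). Exons of Ticam2 overlap those of Tmed7 on the same strand. Cd180, an inhibitor of TLR4 signalling in macrophages, went the other way, with 134 to 190 CPM with S14, 295 to 356 with LPS and 175 to 229 untreated (-1.02 ± 0.11), where S14 and untreated libraries overlapped. Its partner Ly86 was also lower with S14 than LPS (-1.60 ± 0.41), and S14 against untreated cells gave -0.07. Tlr4 itself fell with S14, to 50.4, 51.8, 42.4 and 49.5 CPM against 72.5, 60.7, 84.0 and 69.8 with LPS and 89.2, 80.6, 77.9 and 75.8 untreated. All S14 libraries were below all others for Tlr4 (-0.57 ± 0.11 from LPS, edgeR adjusted p = 2.26e-05). Of the 21 tested genes of Toll-like receptors and adaptors, 6 were higher and 9 lower with S14 than LPS. The shares of all tested genes were 23.7% and 22.4%.

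The antioxidant genes of the NRF2 programme were 13 higher and 1 lower with S14 among 23 tested, with a median difference from LPS of 0.40 on the log2 scale beside 0.07 for all tested genes. S14 raised 9 of them over untreated cells and lowered none, whereas LPS raised 5 and lowered 12. Among all tested genes, 23.7% were higher and 22.4% lower with S14 than LPS. S14 raised 9.05% of all genes and lowered 6.2%, and LPS raised 25.3% and lowered 30.2%. Hmox1, which degrades heme, gave 304, 351, 419 and 419 CPM with S14, 203, 170, 157 and 143 with LPS and 230, 228, 201 and 222 untreated (1.15 ± 0.14). Srxn1, which repairs oxidized peroxiredoxins, gave 303, 333, 329 and 365 CPM with S14, 137, 121, 153 and 109 with LPS and 222, 201, 247 and 252 untreated (1.35 ± 0.10). In both genes the 3 groups were separate, apart from 1 LPS library of Hmox1 at 203 CPM that lay above the lowest untreated one. Nfe2l2, which encodes NRF2, stood 0.92 ± 0.08 and Gclm, a subunit of glutathione synthesis, 0.67 ± 0.12 above LPS. Gclc, the other subunit, was lowered by LPS (-1.63) and gave -0.02 with S14 against untreated cells. Sqstm1, an autophagy receptor whose exons overlap those of Mrnip on the opposite strand, rose with both agents, to 1860 to 2210 CPM with S14 and 1260 to 1430 with LPS. Bach1, a repressor that competes with NRF2 at its target genes, moved in the other direction, with 46.3, 41.6, 34.8 and 37.6 CPM with S14, 221, 224, 193 and 164 with LPS and 55.1 to 59.0 untreated (-2.33 ± 0.11, edgeR adjusted p = 2.32e-21). Under spike-in scaling 4 NRF2 genes were called higher than LPS and none lower. With the 3 h libraries alone it called 6 higher and 2 lower of 22 tested, and 9 and 0 when LPS replicate 1 was also left out.

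Genes of cholesterol synthesis and uptake, which are enzymes, regulators and carriers, gave the highest share above LPS among the lists examined. Of 25 tested, 18 were higher and 1, Ebp, was lower with S14, with a median difference of 0.83. LPS lowered 16 of the 25 and S14 none, and 4 rose with S14. Among all tested genes, 23.7% were higher and 22.4% lower with S14 than LPS. LPS lowered 30.2% of all genes, and S14 lowered 6.2% and raised 9.05%. Hmgcs1, which makes the precursor of mevalonate, gave 201, 204, 225 and 248 CPM with S14, 69.0, 74.9, 85.9 and 98.4 with LPS and 140, 165, 183 and 198 untreated (1.42 ± 0.10). Every S14 library of Hmgcs1 was above every untreated one. Mvd, the mevalonate diphosphate decarboxylase, showed the largest difference of the list (2.80 ± 0.19), with 46.5 to 55.4 CPM with S14 against 3.52 to 10.1 with LPS and 38.1 to 50.2 untreated. S14 and untreated libraries overlapped for Mvd, as they did for Msmo1 (1.74 ± 0.14) and the sterol carrier Stard4 (1.80 ± 0.16), all 3 lowered by LPS and not called with S14 against untreated cells. Under spike-in scaling 9 of the 25 were called higher and none lower. With the 3 h libraries alone it called 12 higher and 1 lower, and 17 and 0 when LPS replicate 1 was also left out.

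Nr1h3, the liver X receptor alpha, a sterol-sensing nuclear receptor (chromosome 2, 91184061 to 91202834, minus strand), was also moved in opposite directions. It held 37.2, 38.6, 36.9 and 40.9 CPM with S14, 15.1, 11.4, 8.01 and 11.2 with LPS and 27.3, 31.1, 24.9 and 25.3 untreated. The 3 groups were separate, at 1.75 ± 0.15 above LPS (edgeR adjusted p = 4.61e-13). Of 16 tested genes of its targets and of lipid export, 7 were higher and 2 lower with S14 than LPS. The shares of all tested genes were 23.7% and 22.4%. The exporter Abca1 rose with both agents, to 57.0 to 72.9 CPM with S14 and 63.4 to 69.6 with LPS from 39.6 to 42.7, and the difference of -0.14 had a 95% interval from -0.43 to 0.15. Arl4c (2.70 ± 0.16) and the desaturase Scd2 (1.58 ± 0.15) were lowered by both agents and less by S14.

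Mertk, a receptor for the uptake of apoptotic cells (chromosome 2, 128698956 to 128802894, plus strand), had the largest difference among genes that S14 lowered and LPS raised, apart from 1 predicted gene of low level. Its levels were 14.0, 15.5, 5.27 and 8.31 CPM with S14, 106, 154, 117 and 129 with LPS and 21.9, 32.0, 24.0 and 16.3 untreated. Every S14 library was below every other, at -3.59 ± 0.23 from LPS (edgeR adjusted p = 4.68e-12). Its relative Axl was raised by LPS, and it held 29.0 to 40.7 CPM with S14 beside 19.3 to 32.0 untreated (-1.16 ± 0.22 from LPS). None of 17 tested genes of apoptotic cell uptake was higher with S14 than LPS, and 9 were lower. Among all tested genes 23.7% were higher and 22.4% lower. Pikfyve, a phosphoinositide kinase of endosomes (-2.34 ± 0.13), Chd9, a chromatin remodeller (-2.20 ± 0.15), Enc1, an actin-binding protein (-2.19 ± 0.29), and Tiam1, an activator of the GTPase RAC1 (-2.08 ± 0.17), followed. S14 and untreated libraries overlapped for Chd9 and Tiam1.

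**Figure D3:**
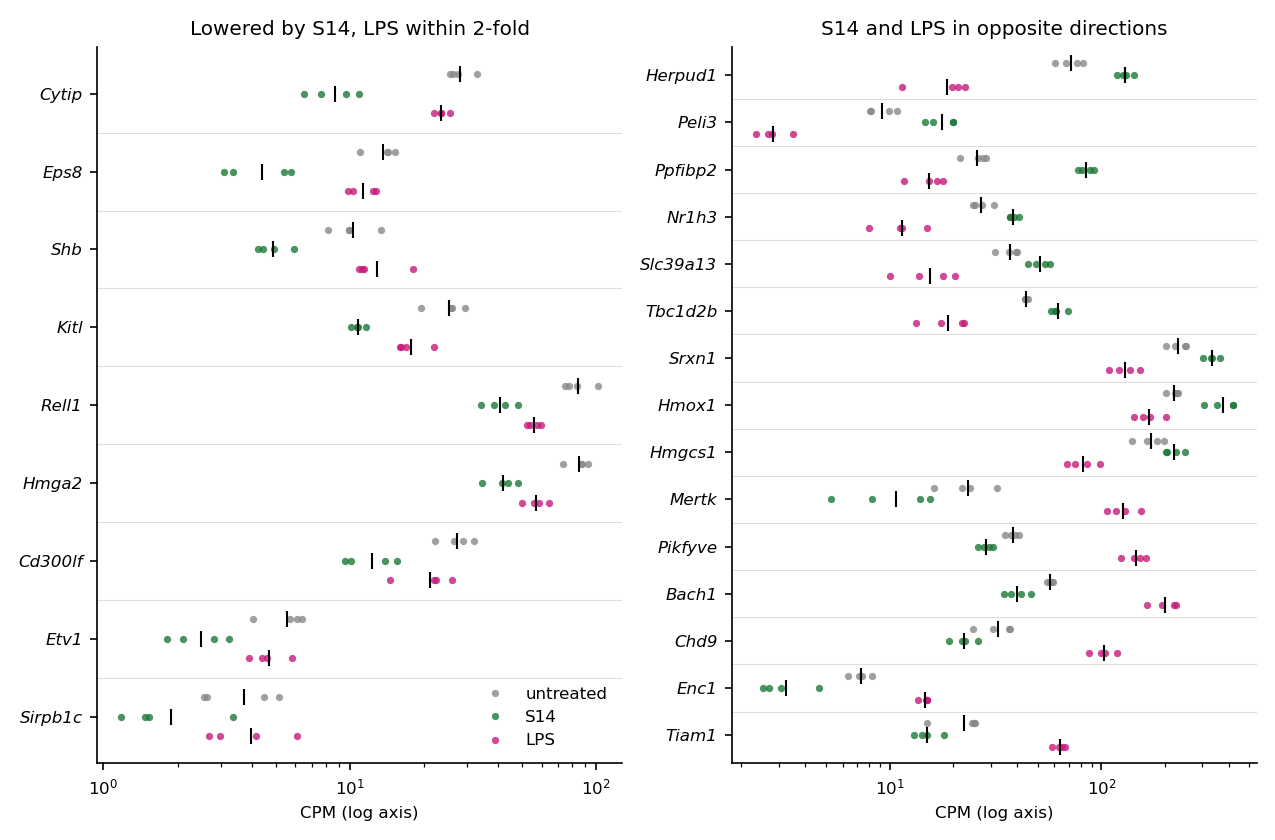
CPM of each library (log axis) for the 9 genes that S14 lowered at least 2-fold and LPS left within 2-fold (left) and for 15 genes moved in opposite directions (right): dots are libraries of untreated (grey), S14 (green) and LPS (magenta) cells, black ticks are group means. On the left the mean with S14 is below both other means. On the right it is the highest mean from Herpud1 to Hmgcs1 and the lowest from Mertk to Tiam1.

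Promoter stretches of 4 genes that S14 raised and LPS lowered are shown since they hold matches to motifs named for the NRF2, AP-1, sterol and amino acid responses. Gclm is chr3:122245397-122245456, Srxn1 chr2:152105404-152105493, Hmgcs1 chr13:119690201-119690300 and Herpud1 chr8:94386239-94386338, all on the plus strand and upstream of the RefSeq start. Capitals mark the antioxidant response element (TGACNNNGC) in Gclm, AP-1 (TGANTCA) in Srxn1, the sterol response element (TCACNCCAC) and then NF-kB in Hmgcs1, and the antioxidant and then the amino acid response element (TGATGNAA) in Herpud1, each read on both strands.
Gclm: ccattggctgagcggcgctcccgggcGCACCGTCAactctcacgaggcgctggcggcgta
Srxn1: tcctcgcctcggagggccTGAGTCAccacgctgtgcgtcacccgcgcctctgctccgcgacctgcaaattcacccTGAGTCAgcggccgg
Hmgcs1: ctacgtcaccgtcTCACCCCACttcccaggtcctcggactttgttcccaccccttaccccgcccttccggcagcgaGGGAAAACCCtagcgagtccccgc
Herpud1: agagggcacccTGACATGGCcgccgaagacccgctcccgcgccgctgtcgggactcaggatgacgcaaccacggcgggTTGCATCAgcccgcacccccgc
Of the 27 such genes with a promoter in the table, 8 (29.6%) held the antioxidant element, beside 17.2% of all tested genes with a promoter, and 2 (7.41%) the sterol element, beside 1.34%. The amino acid element was found in 2 (7.41%), beside 2.85% of all. AP-1 was found in 1 (3.7%), beside 6.28%, and NF-kB in 1 (3.7%), beside 4.73%. Counts of 1 or 2 among 27 promoters are small, and their difference from the share of all was not tested. The antioxidant and amino acid elements share letters with the AP-1 and cyclic AMP motifs. The sterol motif was added after the values were seen.

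LPS moved 1513 genes (12.9%) that S14 left within 2-fold, 712 up and 801 down, by the same rule with the agents exchanged. Under spike-in scaling the count was 575, of which 414 were up and 161 down. The lowered genes included 5 of the 10 with the largest excess of S14 over LPS, which were Sesn1, Cd300lb, Tfeb, Soga1 and Cebpa. Sesn1, a stress-induced inhibitor of mTORC1 (chromosome 10, 41809935 to 41908424, plus strand), held 43.9, 37.6, 40.5 and 47.3 CPM with S14, 1.35, 3.62, 2.43 and 1.56 with LPS and 63.6, 62.6, 59.4 and 62.3 untreated. The groups were separate, and S14 had itself lowered Sesn1 by 0.55 ± 0.12 on the log2 scale. Cd300lb, an activating receptor of the CD300 family, held 140 to 149 CPM with S14, 6.96 to 15.6 with LPS and 192 to 245 untreated, and its S14 value was likewise below untreated cells (-0.56 ± 0.10).

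Tfeb, a master regulator of lysosomal genes, held 27.1, 16.5, 20.9 and 16.8 CPM with S14, 3.25, 1.95, 0.728 and 0.26 with LPS and 24.0, 21.6, 23.8 and 28.9 untreated. S14 and untreated libraries overlapped, and S14 against untreated cells gave a 95% interval from -0.74 to 0.18. Genes of the folliculin complex, which acts on TFEB at the lysosome, showed the same order: Flcn was 2.51 ± 0.23 and Fnip2 2.27 ± 0.17 above LPS, with S14 not called against untreated cells in either. The wider list of 35 lysosomal genes gave 6 higher and 8 lower with S14 than LPS, and 21 not called. Among all tested genes 23.7% were higher and 22.4% lower. Cebpa, a lineage factor of myeloid cells (3.35 ± 0.24), Soga1 (3.55 ± 0.35), Tal2, a basic helix-loop-helix factor (3.26 ± 0.34), Dusp4, a phosphatase of MAP kinases (3.11 ± 0.25), and Bhlhe41, a transcriptional repressor (3.08 ± 0.20), completed the 8 largest. Genes that S14 lowered at least 2-fold and LPS lowered further are not in this class. Among them were Plekhg3, a guanine nucleotide exchange factor (4.06 ± 0.34), Lhfpl2 (3.34 ± 0.23) and the cell cycle factor E2f2 (3.29 ± 0.43), and Slco4a1, an organic anion transporter, missed the class with a fall of 0.86 ± 0.11 (3.74 ± 0.15 above LPS). Arhgef39, a further exchange factor, stood 3.54 ± 0.45 above LPS, with S14 against untreated cells at -0.72 ± 0.31 (edgeR adjusted p = 0.125).

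The 1513 genes include 5 with no read in the S14 and untreated libraries, for which an interval of S14 against untreated cells measures nothing. Among them Fst, which encodes the activin antagonist follistatin, had 316 reads in the LPS libraries. Its level with LPS was 25.2, 21.2, 20.6 and 16.1 CPM, at least 130-fold above S14 when 3 counts over the group are taken as the floor. Among the genes with reads in all groups, Il4ra, the interleukin-4 receptor, held 41.1, 56.2, 62.0 and 56.1 CPM with S14, 642, 701, 689 and 759 with LPS and 34.7 to 42.4 untreated (-3.69 ± 0.13 from LPS). S14 and untreated libraries overlapped, and S14 was called above untreated cells by 0.46 ± 0.13. Sema4c, a semaphorin (-4.18 ± 0.27), Rhoh, a GTPase of blood cells (-4.16 ± 0.26), Adap2, an ARF GTPase-activating protein (-3.40 ± 0.23), Gypc, a glycophorin (-3.33 ± 0.22), and Gnb4, a G protein subunit (-3.28 ± 0.17), had S14 libraries that overlapped the untreated ones. Stat5a, a cytokine-activated factor whose exons overlap those of Stat3 on the opposite strand, stood at -3.26 ± 0.14.

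**Figure D4:**
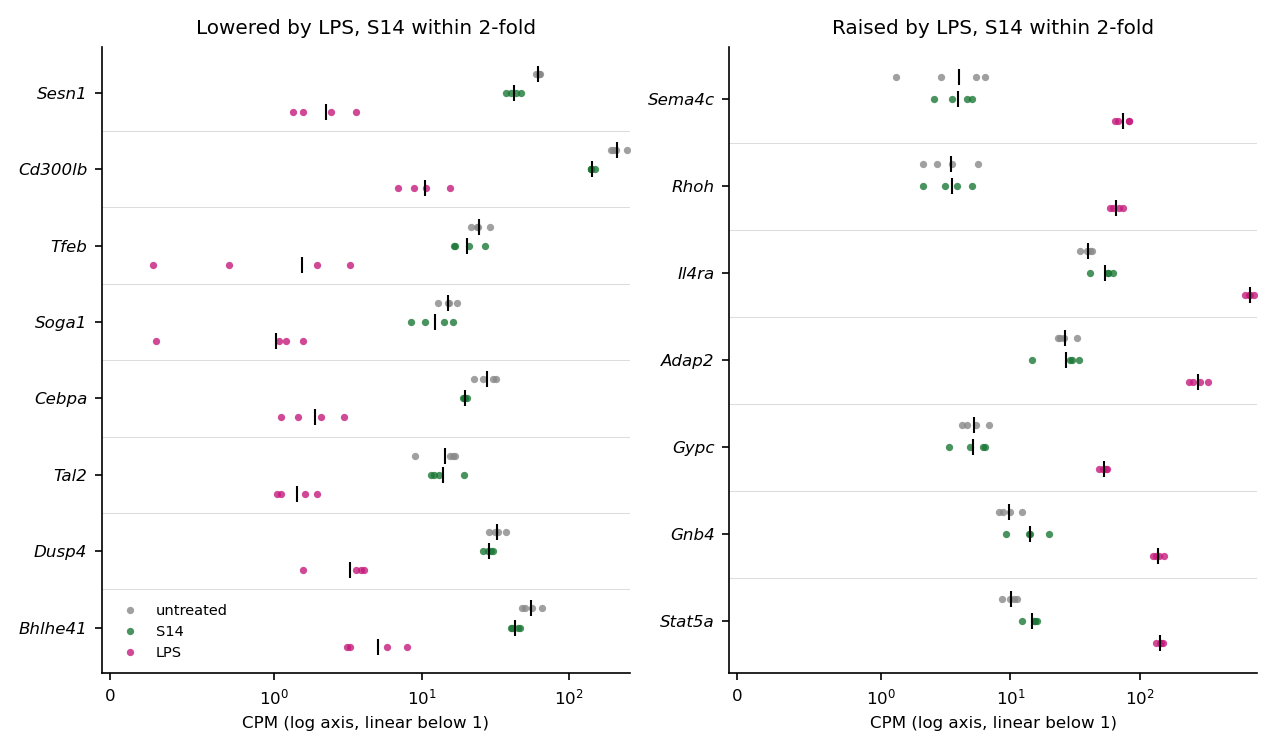
CPM of each library (axis logarithmic above 1 and linear below) for genes with the largest difference among those that LPS lowered (8, left) or raised (7, right, without Fst) and S14 left within 2-fold: dots are libraries of untreated (grey), S14 (green) and LPS (magenta) cells, black ticks are group means. LPS libraries stand apart from both other groups in all 15 genes.

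Most interferon-stimulated genes, cytokines and chemokines were raised by both agents and further by LPS. All 40 tested interferon-stimulated genes were lower with S14 (median -2.45), although S14 raised 37 of them over untreated cells and LPS raised all 40. Iigp1, an interferon-induced GTPase, held 40.7 to 61.8 CPM with S14, 1860 to 2140 with LPS and 13.0 to 16.5 untreated. Of 15 cytokines 14 were lower with S14, and S14 raised 13 and LPS 14. Among all tested genes, 22.4% were lower with S14 than LPS, and S14 raised 9.05% and LPS 25.3%. Il1b held 327, 515, 625 and 546 CPM with S14, 3790, 3410, 4620 and 4230 with LPS and 9.23 to 15.6 untreated (-2.99 ± 0.31). Il6 held 4.91 to 10.1 CPM with S14 and 294 to 370 with LPS (-5.25 ± 0.21), and 1 read of it was found in the 4 untreated libraries. Tnf came closest to LPS among the 14, with 594, 745, 737 and 714 CPM against 789, 884, 874 and 968 (-0.33 ± 0.09, edgeR adjusted p = 0.00144). Il10 was raised by LPS, to 185 to 197 CPM, and held 7.59 to 12.2 with S14 and 4.00 to 9.23 untreated. Nlrp3, the inflammasome sensor, held 147 to 205 CPM with S14, 151 to 191 with LPS and 37.4 to 84.3 untreated, and its difference of 0.08 had a 95% interval from -0.25 to 0.40 (-0.13 under spike-in scaling).

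The 10 genes lowest with S14 against LPS were Fst, the iron hormone Hamp, the interleukin-2 receptor chain Il2ra, the chemokine Cxcl9, the exchange factor Kalrn, the GTPase Gbp4, the adhesion receptor Selp, the peptide Edn1, the pentraxin Ptx3 and the cytokine Il19. Edn1, or endothelin-1, held 8.14 to 11.8 CPM with S14, 572 to 607 with LPS and up to 0.235 untreated (-5.89 ± 0.15). Cxcl9 held 10.0 to 15.3 CPM with S14, 834 to 1430 with LPS and 0.676 to 3.52 untreated (-6.47 ± 0.30). The other 8 held at most 1.86 CPM in any S14 library. The ratio of LPS to S14 was 207 for Hamp (95% counting interval 36.6 to 8210, 1 read with S14), 100 for Kalrn (33.8 to 488, 3 reads) and 94.1 for Selp (25.6 to 784, 2 reads). These intervals cover counting error only.

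A stretch of the Gbp5 promoter stands for the genes lower with S14, with the interferon-stimulated response element and then an NF-kB match in capitals (chr3:142496754-142496873, plus strand). Gbp5, a guanylate-binding GTPase, held 157 to 192 CPM with S14, 2520 to 3600 with LPS and 12.8 to 17.8 untreated.
Gbp5: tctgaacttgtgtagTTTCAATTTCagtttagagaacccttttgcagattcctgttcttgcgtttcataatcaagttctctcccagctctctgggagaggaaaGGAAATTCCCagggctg
The interferon element was found in 8.5% of 2001 promoters of genes lower with S14, 2.21% of 2217 promoters of genes higher with S14 and 4.19% of all. The NF-kB motif was found in 6.25%, 4.6% and 4.73% in the same order. Most promoters of genes lower with S14 thus lacked each motif.

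Lists of genes by function divided as follows, beside 23.7% higher and 22.4% lower among all tested genes. Members higher with S14 outnumbered those lower, beside cholesterol, NRF2 and liver X receptor genes, in cell cycle and DNA replication (19 higher and 4 lower of 34 tested), lipid droplets and fatty acid use (10 and 4 of 25), the integrated stress response (9 and 5 of 21), glycolysis and hypoxia (9 and 6 of 24), p53 targets (6 and 4 of 17) and sphingolipid metabolism (8 and 6 of 27). The shares of sphingolipid genes lay near those of all genes. For p53 targets and for glycolysis and hypoxia the lower share lay near that of all genes and the higher share above it, on few genes. Spike-in scaling turned the balance for lipid droplets (1 higher, 3 lower), the integrated stress response (3 and 5), glycolysis (1 and 5), sphingolipids (2 and 5) and the cell cycle (2 and 3). Without LPS replicate 1 and with the 3 h libraries alone it stayed turned for glycolysis (4 and 6) and sphingolipids (5 and 6). LPS lowered 22 of the 34 cell cycle genes, beside 30.2% of all genes, and S14 lowered 7 and raised 1, beside 6.2% and 9.05%. Ccnd2, cyclin D2, was among the 4 lower with S14, with 33.4 to 44.7 CPM with S14 and 1040 to 1100 with LPS (-4.76 ± 0.13). Among the sphingolipid genes, Ormdl3, an inhibitor of ceramide synthesis, was 1.49 ± 0.23 above LPS, and Ugcg, the glucosylceramide synthase, and Asah2, the neutral ceramidase, were -1.55 ± 0.16 and -1.45 ± 0.21 from it. LPS had moved these 3 genes, and S14 was called against untreated cells in none of them. Sgms1, a sphingomyelin synthase, was raised by S14 to 72.6 to 87.3 CPM, against 47.1 to 70.6 with LPS and 52.3 to 59.7 untreated (0.55 ± 0.12 above LPS, edgeR adjusted p = 0.000233); it was named after its values were seen, and its exons overlap those of 2700046G09Rik on the opposite strand.

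Lower members prevailed among NF-kB subunits and inhibitors (14 lower and 0 higher of 17), costimulation and MHC class I (17 and 1 of 18), IRF, STAT and SOCS factors (14 and 2 of 19), inflammasome genes (12 and 2 of 18), antimicrobial and acute-phase proteins (11 and 0 of 15), complement (9 and 1 of 16), matrix proteases (11 and 2 of 19), alternative activation (10 and 3 of 17), immediate early genes (12 and 5 of 23), lipid and purine receptors (10 and 4 of 22), metallothioneins and metal transport (8 and 3 of 17), growth factor receptors and lineage factors (8 and 5 of 20), MAP kinase phosphatases (6 and 4 of 13), scavenger receptors (5 and 2 of 12), and chemokine and formyl peptide receptors (5 and 2 of 11). NADPH oxidase and peroxide genes (5 each of 17), arginine and polyamine metabolism (5 lower and 4 higher of 14), C-type lectins (3 and 2 of 13) and eicosanoid synthesis (2 and 1 of 15) were more even. Within these lists S14 was above LPS for S1pr1, a receptor of sphingosine-1-phosphate that both agents lowered (2.91 ± 0.25), and Cx3cr1, the fractalkine receptor that LPS lowered (2.86 ± 0.35). Far below LPS were Nos2, the inducible nitric oxide synthase (23.3 to 31.8 CPM with S14 and 625 to 757 with LPS), Ptgs2, cyclooxygenase-2 (71.3 to 125 and 1130 to 1450), Socs1 (29.3 to 37.9 and 502 to 571) and the metallothionein Mt2 (138 to 219 and 3250 to 4190). S14 raised all 4 over untreated cells. These lists were written with earlier results of these data known, and their counts are descriptions.

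**Figure D5:**
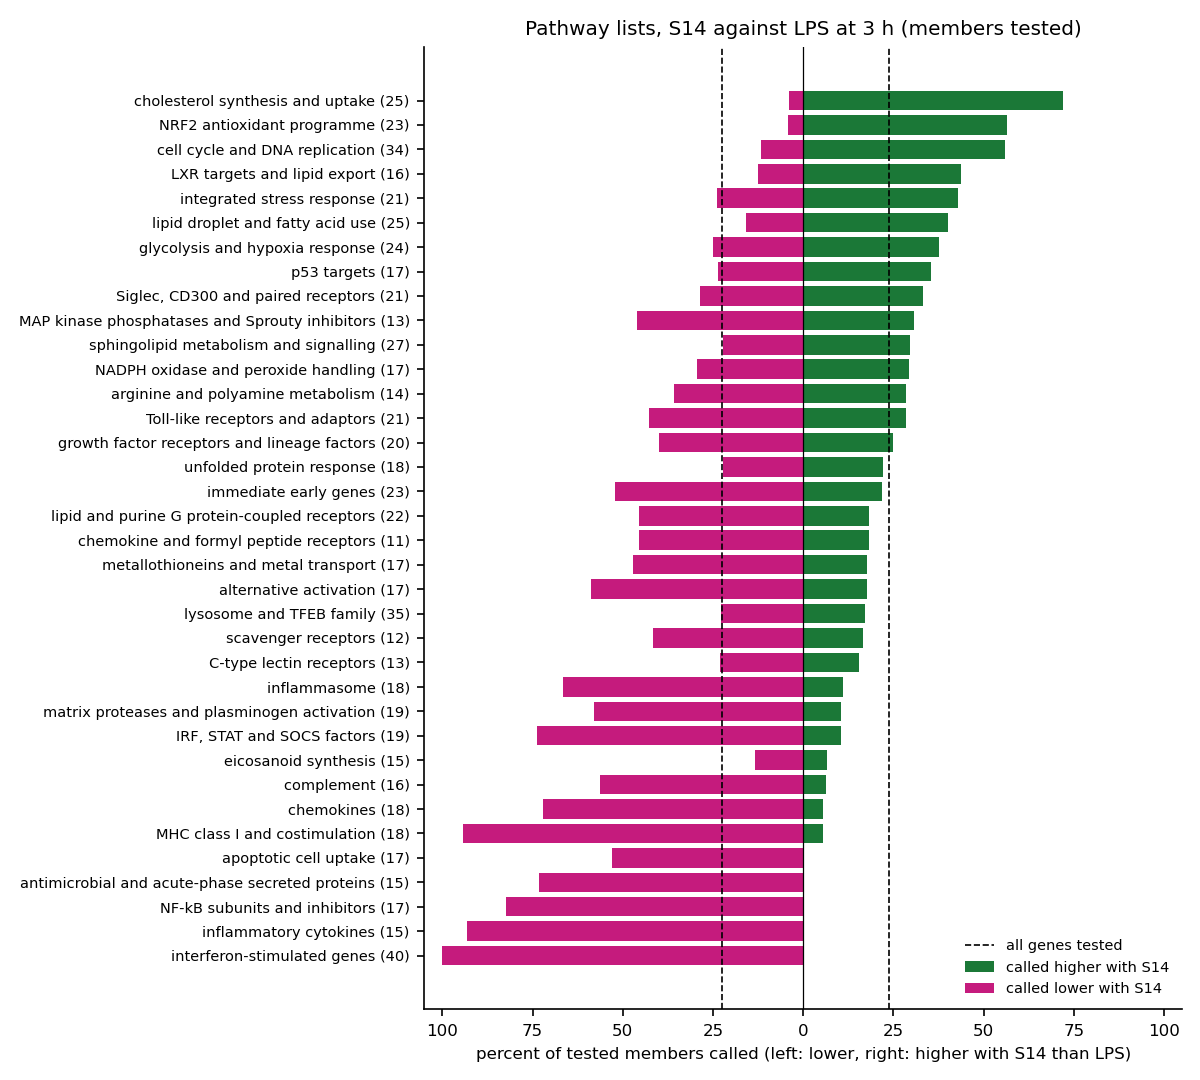
Percent of the tested members of each pathway list that were called higher (green, right) or lower (magenta, left) with S14 than with LPS, with the number tested in brackets; dashed lines mark 23.7% and 22.4%, the shares of all tested genes. Cholesterol, NRF2 and cell cycle lists extend furthest to the right, and interferon-stimulated genes reach 100% on the left.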

How the data were processed

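Bone marrow-derived macrophages were profiled by 3' end RNA sequencing (QuantSeq 3' FWD). The counts analysed are the whole reads per gene that the authors deposited; per the submitters' processing notes the tools included cutadapt 1.18, FastQC, STAR 2.6.1a, featureCounts 1.6.4, Subread and DESeq2, with the build GRCm38. The sources used here do not state the strand setting, the treatment of multi-mapping reads or the annotation release. A second deposited table holds a size-factor-scaled signal, reads divided by 1 factor per library by the authors. Multiplied back, 100% of its values lay within 1e-06 of a whole number, and those reads gave 5315 called genes. It also holds the spike-in RNA, whose added amount is not stated.

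From the counts, 7 ribosomal RNA entries were set aside and genes were filtered with edgeR's filterByExpr (minimum count 10, minimum total 15). edgeR 4.0.16 (R 4.3.3, limma 3.58.1) fitted 1 mean per group over all 24 libraries with TMM scaling and a robust quasi-likelihood test (18 residual degrees of freedom). Standard errors were derived from each log2 fold change and its F statistic, and intervals are 95%. Python 3.11.15, pandas 2.3.3 and matplotlib 3.10.9 made the tables and plots. The test was also run on simulated counts in which only S14 at 3 h changed a set of genes. Those counts held no broad change with LPS, so they cannot check the scaling between S14 and LPS. Alternatives were other scalings (RLE, spike-in), DESeq2 1.42.0, no filter, other sets of libraries, the second table, a replicate block, other bounds and leaving out each library.

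The genes compared, the lists and the naming rule were chosen with earlier results of these data known. The rule named 152 genes: the 10 highest and 10 lowest, the leading genes of each class, the 3 largest of each list and index genes, at 10 CPM or more. Of the 112 genes given with values, 19 fall outside it and were chosen after their values were seen. Gene positions are from GENCODE M21 and promoters from RefSeq (GRCm38.p6).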

Additional observations from a re-analysis of the deposited data

Results flagged for a closer look

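Among 336 groups of 4 libraries, from the 112 named genes at 3 h, 32 held 1 outlying library. Its gap to the nearest other was above Dixon's critical share of the group's range. For normally distributed values chance flags about 1 in 20 groups, a rate that does not hold for groups of few reads. A group with reads in a single library is always flagged, so the count of 32 cannot be set against that rate. For Pim2 replicate 1 was high in each group, at 18.9 CPM with S14, 10.0 with LPS and 4.71 untreated. Ksr1 was high in replicate 3, at 5.28 CPM untreated and 4.61 with LPS. With S14, single libraries were high for Tsc22d1 (74.8 CPM), Abca1 (72.9), Il10 (12.2), Cd300lb (149.0) and Sirpb1c (3.36), and low for Icosl (89.2), Mvd (46.5) and Ticam2 (20.2). With LPS, single libraries were high for Kitl (22.0 CPM) and Shb (18.1) and low for Cdc42ep2 (27.6) and Iigp1 (1860.0). In untreated cells, Dnmt3l (4.94 CPM), Asah2 (14.0), Tshz1 (36.1) and Gbp4 (1.53) had 1 high library, and Tiam1 (15.1), Gclc (29.7) and Gbp5 (12.8) had 1 low library. A single library held all reads of its group for Edn1 (0.235 CPM), Il6 (0.225), Selp (0.225), Il2ra (0.235) and Hamp (0.44) in untreated cells, and for Selp (0.339), Il2ra (0.843) and Hamp (0.258) with S14.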

How the results depend on the processing

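Spike-in scaling over 24 libraries called 2232 genes between S14 and LPS, 5 raised 2-fold and above LPS, 3 moved by S14 and 575 by LPS with the other agent within 2-fold, and 0 in opposite directions; the cause was not tested. It turned Tmem176a to -0.0059, and to -0.00052 with the 3 h libraries alone. That second setting gave 3553 called genes and 6 in opposite directions. Leaving out LPS replicate 1 as well gave 8 genes moved by S14 and 28 in opposite directions. Both 3 h spike-in settings were chosen after seeing the data. Any called rise over untreated cells in place of 2-fold gave 111 genes above LPS. Holding the other agent within 1.5-fold left 1 gene for S14 and 572 for LPS.

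Leaving out each library in turn gave 4926 to 5358 called genes, 16 to 22 above LPS, 7 to 15 moved by S14, 1396 to 1508 moved by LPS and 43 to 62 in opposite directions. The block on replicate number called 5447 genes and changed the call of none of the 112 named genes. Same-numbered libraries of S14 and LPS correlated at 0.015 to 0.053, and differently numbered ones at -0.042 to 0.026. The same number gave the highest value for S14 replicates 1, 2 and 3. S14 replicate 4 correlated more with LPS replicate 3 (0.026) than with its own number (0.017). These values do not settle whether the numbers pair samples, and the main test did not pair them. With RLE scaling, DESeq2, no filter, other sets of libraries or the second table, each count stayed within 1.5 times its value in the report. Depth of 3334182 to 5465764 reads limits genes of a few CPM, for which 1 library holds a handful of reads.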

Other observations

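Genes next to Nr1h3 on chromosome 2 were looked at after its values were seen. Acp2, a lysosomal acid phosphatase whose gene starts beside it on the other strand, also moved in opposite directions, with means of 373 CPM with S14, 193 with LPS and 264 untreated (S14 above LPS by 0.95, edgeR quasi-likelihood adjusted p = 8.3e-15). Madd, on the other side of Nr1h3, was lowered by LPS and stood 1.72 higher with S14 than LPS, with S14 not called against untreated cells. Spi1, which encodes the myeloid factor PU.1, was raised by both agents, by 0.39 with S14 and 0.38 with LPS, and the difference between them was 0.01 (edgeR adjusted p = 0.903).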
